A study of Mus musculus with 2 samples.

Results

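The genes described here encode the respiratory chain and the ATP synthase of mitochondria. They were chosen by name, as the genes whose platform symbol begins with Nduf, with Sdh and a letter from a to d, with Uqcr, with Cox and a digit from 4 to 8, or with Atp5. Of 18193 genes named by a probeset with 1 gene symbol, 94 met this rule, through 185 probesets. The rule itself uses no measured value, although it was set with earlier results of these data known. The 94 genes comprised 34 subunits of complex I, 4 of complex II, 8 of complex III, 17 of complex IV and 17 of the ATP synthase, and 14 assembly factors or associated proteins that share a name with the subunits. Ndufa4 was counted with complex IV, to which its protein belongs.

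RNA came from RAW264.7, an established line of mouse macrophages. One group had been infected with the retroviral vector MSCV without insert (empty vector), and the other with MSCV encoding miR-155, a microRNA of activated immune cells. Both groups were infected in the presence of polybrene and selected with puromycin at 7 µg/ml, and both were cloned by limiting dilution. The RNA of 5 clones was pooled in each group and hybridised to 1 Affymetrix array, so the values average over clones. Differences due to miR-155, to the clones chosen and to the hybridisation cannot be told apart, nor can a changed share of cells and a changed amount of RNA per cell. The study asked which mRNAs miR-155 regulates.

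Complexes I to IV pass electrons from NADH and succinate to oxygen and, at complexes I, III and IV, move protons out of the mitochondrial matrix. The ATP synthase, often called complex V, uses the returning protons to make ATP. Most subunits are encoded in the nucleus and imported, and their amounts must match those of the few encoded in mitochondrial DNA. In macrophages the balance between respiration and glycolysis differs between activation states. The microRNA that distinguished the groups is printed here as RNA from RefSeq (GRCm38.p6, plus strand, chr16:84714143-84714165), with its seed, bases 2 to 8, in capitals.
mmu-miR-155-5p: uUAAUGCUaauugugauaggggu

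Signals are probeset intensities on the deposited linear scale, and each gene was read from its brightest probeset. A ratio is the log2 of miR-155 over empty vector, so negative values are lower with miR-155. Signals of different probesets are not comparable as levels. With 1 array per group no test was possible, and no p-value is given. As a measure of spread, the local SD is the robust SD of the ratio among the 500 genes nearest in signal. It holds any real differences among those genes and does not measure variation between clones or cultures. The upper 50% of genes by mean log2 signal (geometric mean of at least 25.8) were kept, which left 9097 genes in all and 87 of the 94 members, each with both readings above that floor.

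All 8 macrophage markers examined read between 147 and 6058, but they were not all alike on the 2 arrays. With empty vector and miR-155, Adgre1 read 472 and 289, Spi1 1067 and 700, Lyz2 6058 and 4731, and Csf1r 6040 and 5095. Cd68 read 3385 and 3371, and Tyrobp 4758 and 4607. Fcgr1 read higher with miR-155, at 716 and 1130, as did Itgam, at 147 and 220. The 16 measured markers of B cells, T cells, fibroblasts and muscle read between 0.93 and 29.1. The median signal of all 45101 probesets was 15.4 with empty vector and 14.1 with miR-155, and the median ratio of the genes kept was −0.05.

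The subunit genes read nearly alike on the 2 arrays. None of the 87 members kept was 1.5-fold higher or lower, against 5.32% of all genes kept that were at least 1.5-fold higher and 5.99% that were as much lower. None was 2-fold different either, where 1.92% of all genes kept were at least 2-fold higher and 1.43% lower. A difference of less than 1.1-fold was found for 59 members, against 39.5% of genes kept. The median ratio of the members was −0.03 (range −0.50 to 0.26), and 52 of them had a ratio below 0, against 58% of genes kept. Counted from the median of all genes kept, −0.05, rather than from 0, 39 of the 87 members were lower, so the direction of the set depended on the scaling. The groups of subunits had medians of −0.06 for complex I, −0.01 for complex II, −0.06 for complex III, −0.05 for complex IV and 0.00 for the ATP synthase. The medians differed by less than the spread within any 1 complex, where the robust SD of the ratio ran from 0.10 for complex IV to 0.20 for complex II.

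Most members are bright, and ratios of bright genes vary less, so the members were also set beside genes of like signal. Of the members, 64 had a geometric mean signal of at least 1000, as did 1020 genes in all. Among these 64 the difference was under 1.1-fold for 49, against 61% of the 1020 genes, and the ratio was below 0 for 38, against 65.2%. None of the 64 reached 1.5-fold, but only 1.27% of the 1020 genes were that much higher and 1.37% lower. The robust SD of the ratio was 0.09 among the 64 members and 0.14 among the 1020 genes.

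At a smaller threshold, members passed only on the lower side. Their count there was below the share of all genes kept, and for bright members it was close to the share of bright genes. A reading at least 1.2-fold higher with miR-155 was found for 0 of the 87 members and a reading at least 1.2-fold lower for 9, against 15.1% and 21.2% of all genes kept. Among the 64 bright members the counts were 0 and 6, against 5.1% and 8.92% of the 1020 bright genes. The absence of higher members depended on the scaling, since 2 were higher and 6 lower when the median of the genes kept was set to 0. Just short of 1.2-fold were Atp5d and Sdhc on the higher side and Atp5md on the lower. The 9 lower genes were Atp5mpl, Ndufs1, Ndufb11, Uqcrfs1, Cox8c, Ndufb3, Ndufs7, Sdha and Ndufb1, and only 3 of them had a further probeset above the floor. Measured in local SDs, 4 members lay at least 2 below the local median and 1 at least 2 above it, against 4.46% and 5.34% of genes kept.

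**Figure D1:**
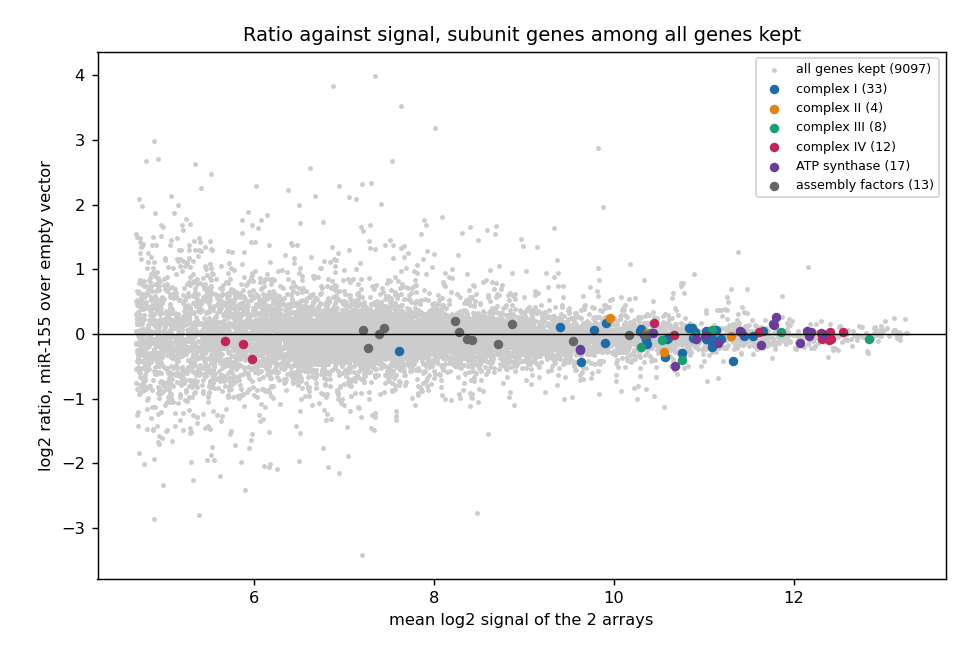
Log2 ratio of miR-155 over empty vector (vertical axis) against the mean log2 signal of the 2 arrays (horizontal axis), for the 9097 genes kept in grey and the 87 members in colour by complex. Most members, 64 of the 87, have a geometric mean signal of at least 1000 and sit in the bright, narrow part of the cloud. The dimmer ones include most assembly factors and Cox6a2, Cox7a1 and Cox8c. All 87 lie between −0.50 and 0.26.

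Complex I, the NADH dehydrogenase, is the largest of the complexes and feeds electrons from NADH into the chain. Of its 33 genes kept, 21 had a ratio below 0 and 17 a ratio below the median of all genes kept, and 5 were at least 1.2-fold lower. The core subunits carry the flavin and the iron-sulphur clusters. Of the 7 that are nuclear-encoded, 6 were measured, and 5 of these had a ratio below 0, against 58% of all genes kept. Counted from the median of all genes kept, 4 of the 6 were lower. The median ratio was −0.19 for the core and −0.04 for the 27 accessory subunits, a difference that was not tested. Ndufs1, the large iron-sulphur subunit of the NADH-oxidising part, read 922 with empty vector and 686 with miR-155 (1.35-fold lower, ratio −0.43, local SD 0.18). That was the lowest ratio in the complex, from a single probeset.

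Ndufs7, which holds the last iron-sulphur cluster before ubiquinone, read 1913 with empty vector and 1564 with miR-155 (ratio −0.29, local SD 0.15). Its further probeset read 1328 and 1331, with no difference, so the 2 probesets of this gene disagreed. Ndufv1, which binds the flavin that accepts electrons from NADH, read 859 and 731 (−0.23), and its further probesets gave −0.22 and −0.12. Ndufs3 read 1005 and 908 (−0.15), and Ndufs8, another iron-sulphur subunit, 3029 and 2950 (−0.04). Further probesets of Ndufs8 gave −0.29, −0.19, 0.05 and 0.08, and a dim one 0.76. The exception among the brightest probesets was Ndufv2, the partner of Ndufv1, at 2159 and 2188 (0.02), although its further probesets gave −0.31 and −0.17. In their brightest probesets the core genes therefore ranged from −0.43 to 0.02, and those other than Ndufs1 lay within 2 local SDs of the local median.

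Accessory subunits surround the core and include most genes of the family. Ndufb11, an X-linked subunit of the membrane arm, read 2968 with empty vector and 2211 with miR-155 (1.34-fold lower, ratio −0.43, local SD 0.14). Both further probesets read lower as well, at −0.36 and −0.26, so its 3 probesets shared the direction. Ndufb3, also in the membrane arm, read 1723 and 1347 (−0.36, local SD 0.15), and the small membrane subunit Ndufb1 read 216 and 179 (−0.27, local SD 0.28). The difference of Ndufb1 was smaller than its local SD.

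At the other end of complex I, Ndufa6, an accessory subunit of the LYR family, read 915 with empty vector and 1024 with miR-155 (0.16, local SD 0.17). Ndufs4, a subunit of the NADH-oxidising part, read 653 and 703 (0.11), and Ndufb9 read 1814 and 1929 (0.09). For none of these 3, the highest of the complex, did the ratio exceed its local SD. The other accessory genes kept lay between the ratio of Ndufb8 (−0.20) and that of Ndufa3 (0.09). They included Ndufab1, the acyl carrier protein of mitochondria (−0.09), and Ndufa13 (0.05).

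**Figure D2:**
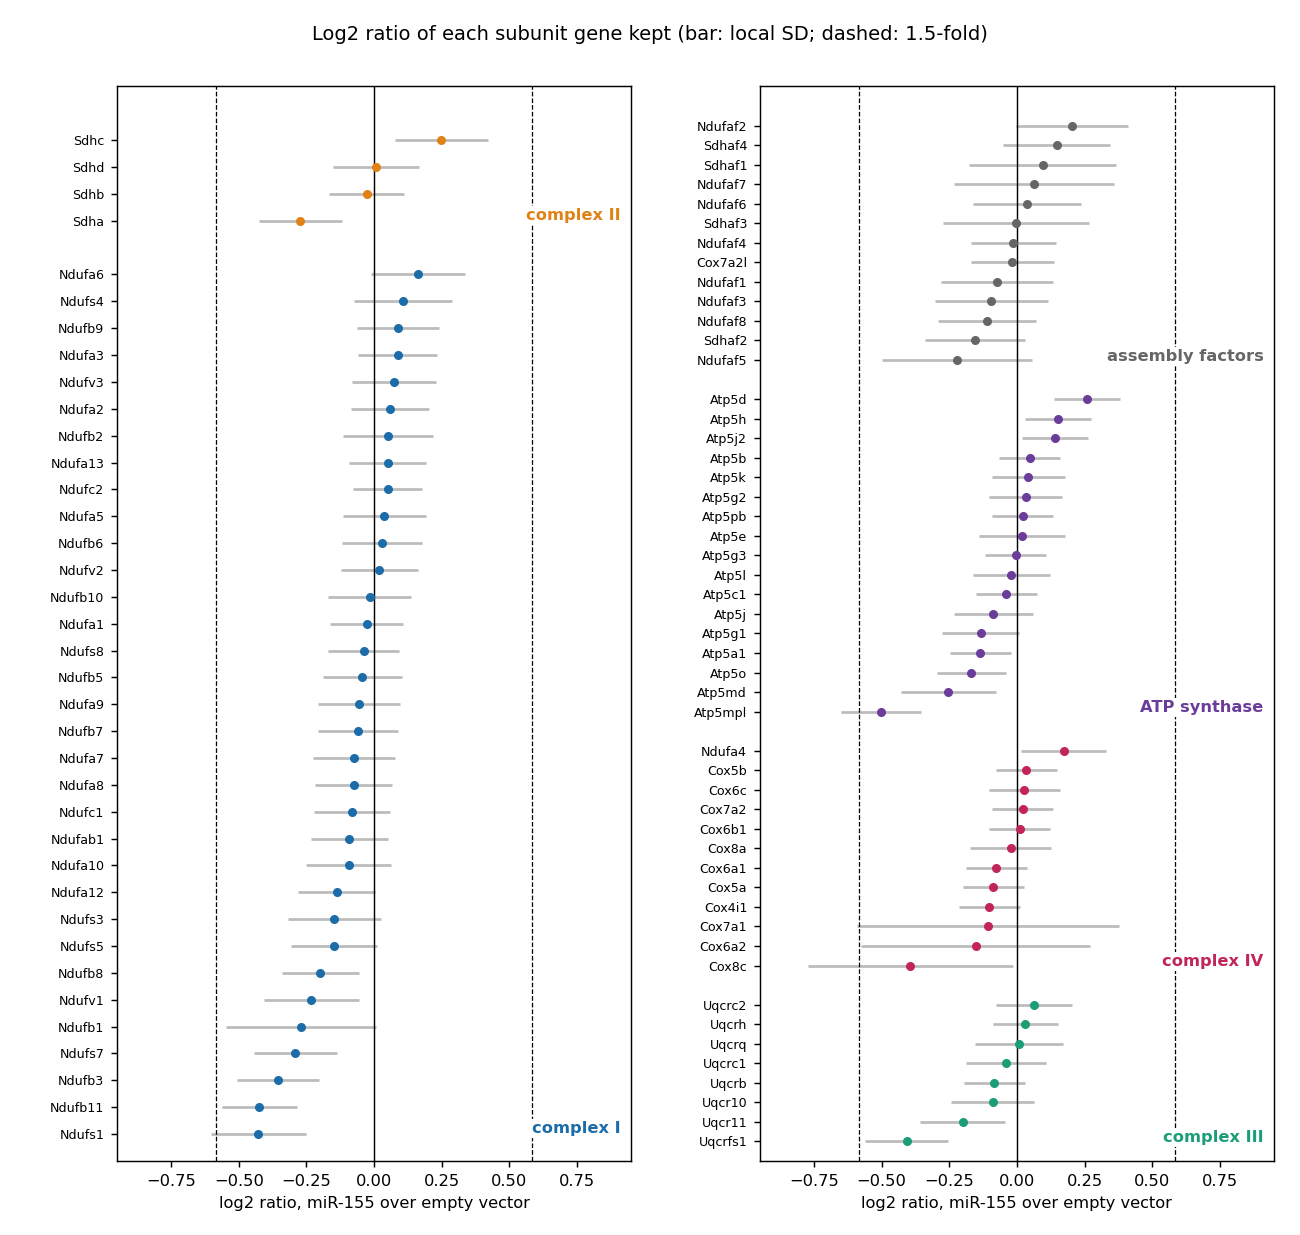
Log2 ratio of miR-155 over empty vector (horizontal axis) for each of the 87 members kept, grouped by complex. Points are single-array ratios, grey bars 1 local SD either side, and dashed lines mark 1.5-fold, which no member reaches. Atp5mpl, Ndufs1, Ndufb11 and Uqcrfs1 have the lowest ratios.

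Complex II, succinate dehydrogenase, is the only complex with no subunit encoded in mitochondrial DNA and is also an enzyme of the TCA cycle. Sdha, the flavoprotein that oxidises succinate, read 1663 with empty vector and 1376 with miR-155 (1.21-fold lower, ratio −0.27, local SD 0.15), and its further probeset above the floor read −0.12. Sdhb, the iron-sulphur subunit, read 2559 and 2511 (−0.03). Sdhd, a membrane anchor, read 1317 and 1324 (0.01).

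The other anchor, Sdhc, read higher, at 911 with empty vector and 1082 with miR-155 (1.19-fold, ratio 0.25, local SD 0.17). Its further probeset read 516 and 323 (−0.68), the opposite direction and a larger difference. The 4 subunits thus gave no common direction, and the direction of Sdhc depended on the probeset.

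Complex III takes electrons from ubiquinol to cytochrome c. Its 8 genes ranged from −0.41 to 0.06, with 5 below 0 and 4 below the median of all genes kept. Uqcrfs1, the Rieske iron-sulphur protein, read 1994 with empty vector and 1504 with miR-155 (1.33-fold lower, ratio −0.41, local SD 0.15). It has 1 probeset, and it stood apart from the next gene, the small subunit Uqcr11, at 1358 and 1182 (−0.20, local SD 0.16).

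The remaining genes of complex III differed by less than 1.1-fold. Uqcr10, a small subunit, read 1534 and 1442 (−0.09). Uqcrb, the brightest member of the whole set, read 7570 and 7142 (−0.08). The core proteins Uqcrc1 and Uqcrc2, which form the matrix part, gave −0.04 (1937 and 1885) and 0.06 (2131 and 2227), and the further probeset of Uqcrc2 gave −0.17. Uqcrq read 1361 and 1369 (0.01), and the hinge protein Uqcrh, which lies beside cytochrome c1, read 3673 and 3755 (0.03). The median of the complex was −0.20 when probesets marked as matching several transcripts were left out, a setting that kept 5 of the 8 genes. Uqcrq was then read from a dim probeset, at 33.8 with empty vector and 20.7, below the floor, with miR-155 (−0.71). The median of −0.20 includes this reading.

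Complex IV, cytochrome c oxidase, passes the electrons to oxygen. Its bright genes varied little. The 9 with a signal of at least 1000 had a median ratio of 0.01, a range of −0.10 to 0.17 and a robust SD of 0.05. The highest was Ndufa4, at 1317 with empty vector and 1484 with miR-155 (1.13-fold, ratio 0.17, local SD 0.16). Next were Cox5b, at 5363 and 5491 (0.03), and Cox6c, at 3098 and 3159 (0.03). The bright further probesets of Cox5b gave 0.22, 0.15 and 0.11, and a dim one −0.64. Cox5a, which lies on the matrix side, read 5266 and 4958 (−0.09), and its further probesets gave 0.04 and −0.26.

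Several subunits of complex IV exist as pairs of genes, one used in most tissues and others in muscle, lung or testis. The widely used forms were all bright. Cox4i1 read 5577 and 5196 (−0.10), Cox6a1 read 5596 and 5312 (−0.08), and Cox6b1 read 5029 and 5067 (0.01). Cox7a2 read 5958 and 6049 (0.02), and Cox8a read 1645 and 1619 (−0.02). None of these widely used forms differed by as much as 1.1-fold.

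The tissue-specific forms were dim on both arrays. The muscle forms Cox6a2 and Cox7a1 read 62.3 and 56.0 (−0.15, local SD 0.42) and 53.1 and 49.3 (−0.11, local SD 0.48). The testis form Cox8c read 72.3 and 55.0 (−0.39, local SD 0.38), which put it past 1.2-fold lower but only about 1 local SD from the local median. Below the filter, so with no ratio, were the muscle form Cox8b (1.49 and 0.97, empty vector first), the testis forms Cox6b2 (1.35 and 0.74) and Cox7b2 (0.67 and 0.47), and Cox4i2, the form of lung and of low oxygen (11.7 and 23.3).

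Cox7c also fell below the filter, at 22.4 and 18.4 with no further probeset above the floor, although it is a constant subunit of the enzyme. Whether its probesets detect the transcript was not tested. The last 2 members below the filter were Ndufb4 (0.42 and 12.6), a subunit of complex I, and Ndufa4l2 (22.3 and 7.91), a relative of Ndufa4 that low oxygen induces. Probesets shared by Ndufb4 and its close copies read far brighter and are given among the closing observations.

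The ATP synthase consists of the catalytic F1 head and of the membrane part with its stalks. Its 17 genes, all kept, had 9 ratios below 0 and 6 below the median of all genes kept. The head was close to even: alpha (Atp5a1) read 4516 with empty vector and 4110 with miR-155 (−0.14, with −0.17 and, in a dim probeset, 0.35 elsewhere), beta (Atp5b) 4455 and 4603 (0.05), gamma (Atp5c1) 4690 and 4563 (−0.04), and epsilon (Atp5e) 1382 and 1400 (0.02). The delta subunit, Atp5d, read 3266 and 3913 (just under 1.2-fold, ratio 0.26, local SD 0.12), the highest ratio of all members. Its further probeset read 1563 and 1427 (−0.13), so this difference was not shared.

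In the membrane part, Atp5mpl, the small proteolipid bound to the enzyme, read 1957 with empty vector and 1380 with miR-155 (1.42-fold lower, ratio −0.50, local SD 0.15). This was the lowest ratio of all 87 members, at −2.96 local SDs from the local median, and came from a single probeset. Atp5md, another small associated subunit, read 863 and 725 (−0.25, local SD 0.18). Atp5o, the protein that couples head and stalk, read 3382 and 3008 (−0.17), and its further probeset gave −0.18.

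On the higher side of the membrane part, Atp5h, of the peripheral stalk, read 3328 with empty vector and 3697 with miR-155 (0.15, local SD 0.12), and Atp5j2 read 3364 and 3709 (0.14). Their further probesets gave −0.03 and 0.01. The 3 genes for the c-ring subunit, whose mature proteins are identical, read 2398 and 2186 (Atp5g1, −0.13), 2710 and 2771 (Atp5g2, 0.03) and 5157 and 5142 (Atp5g3, 0.00). For none of the c-ring genes did the ratio exceed its local SD. The other membrane and stalk genes, Atp5j, Atp5l, Atp5pb and Atp5k, lay between −0.09 and 0.04.

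Assembly factors help to build the complexes without staying in them. Of 13 kept, 8 had a ratio below 0 and 5 a ratio below the median of all genes kept, and the median was −0.01. The lowest was Ndufaf5, which modifies Ndufs7, at 167 with empty vector and 143 with miR-155 (−0.22, local SD 0.28). Sdhaf2, which attaches flavin to Sdha, read 444 and 399 (−0.15), and Ndufaf8 read 775 and 718 (−0.11). The highest were Ndufaf2, at 281 and 324 (0.20, local SD 0.21), Sdhaf4, at 443 and 491 (0.15), and Sdhaf1, at 169 and 181 (0.10). Cox7a2l, which links complexes III and IV into supercomplexes, read 1307 and 1293 (−0.02), with 0.12 and 0.14 in further probesets. No factor was 1.2-fold different.

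Further probesets of the same gene give the only repeated reading within an array. Above the floor on both arrays were 64 further probesets of 44 members. Their ratios differed from that of the brightest probeset by a median of 0.12 in size, with a robust SD of 0.15, about the local SD of bright genes. The sign was the same for 34 of the 64, so the direction of a small ratio was often not shared between probesets. Differences of at least 1.5-fold between probesets occurred for 3 genes: Sdhc, Ndufs8 (0.76 in a probeset reading 38.9 and 66.1) and Cox5b (−0.64 in a probeset reading 45.0 and 29.0). The last 2 probesets are dim.

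**Figure D3:**
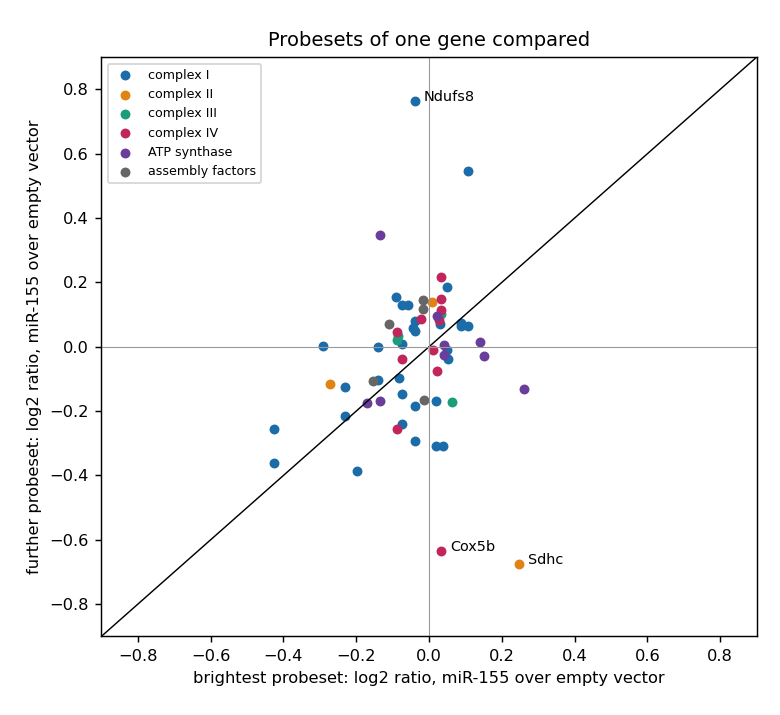
Log2 ratio of miR-155 over empty vector in the 64 further probesets of members above the signal floor (vertical axis) against the ratio in the brightest probeset of the same gene (horizontal axis), coloured by complex. The line marks equal ratios, and the 3 named genes differ by at least 1.5-fold between probesets.

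Promoters are printed for 3 members with low ratios in their complexes and a single promoter window in RefSeq, to show what such genes carry at their start. Sdha and Uqcrfs1 had the lowest ratios among the genes of complexes II and III, and Ndufb11 was the complex I gene farthest below its local median. Sdha lay only −1.35 local SDs from its local median, and Sdhc of the same complex lay farther from its own, at 1.81. Each window runs from 250 bases before to 50 bases after the gene start (RefSeq, GRCm38.p6, minus strand for all 3). Capitals mark CGCANGCG, the inner letters of the binding motif of NRF1, a factor known for activating respiratory genes, and CCAAT, both searched on both strands. The windows are chr13:74350191-74350490 for Sdha, chr13:30545267-30545566 for Uqcrfs1 and chrX:20617570-20617869 for Ndufb11.
Sdha: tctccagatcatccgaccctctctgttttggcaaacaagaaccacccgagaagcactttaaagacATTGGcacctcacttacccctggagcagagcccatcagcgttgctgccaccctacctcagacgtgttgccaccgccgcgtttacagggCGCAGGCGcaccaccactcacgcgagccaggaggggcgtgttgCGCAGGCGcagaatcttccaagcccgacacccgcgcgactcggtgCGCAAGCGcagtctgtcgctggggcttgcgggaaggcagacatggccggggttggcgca
Uqcrfs1: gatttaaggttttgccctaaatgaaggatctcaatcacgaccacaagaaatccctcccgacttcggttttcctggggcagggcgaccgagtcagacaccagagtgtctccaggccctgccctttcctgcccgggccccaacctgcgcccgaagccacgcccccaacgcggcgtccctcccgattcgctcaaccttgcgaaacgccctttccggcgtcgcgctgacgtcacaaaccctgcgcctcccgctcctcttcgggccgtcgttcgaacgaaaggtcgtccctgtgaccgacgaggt
Ndufb11: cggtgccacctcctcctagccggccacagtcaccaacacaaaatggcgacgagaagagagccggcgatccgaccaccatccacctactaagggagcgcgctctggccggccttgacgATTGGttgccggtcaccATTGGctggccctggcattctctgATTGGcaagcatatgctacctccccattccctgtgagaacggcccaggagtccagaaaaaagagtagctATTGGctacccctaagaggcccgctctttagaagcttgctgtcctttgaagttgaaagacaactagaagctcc

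The Sdha window held the NRF1 letters at 3 places and CCAAT at 1, the Ndufb11 window held CCAAT at 4 places, and the Uqcrfs1 window held neither. Windows were found for 78 of the 94 members, and the first listed was used where a gene had several. The NRF1 letters were in 27 of the 78 (34.6%), against 20.1% of the windows of genes kept and 8.42% of 27025 windows of all genes. They were in 8 of 15 windows of the ATP synthase, 8 of 31 of complex I and 1 of 12 of complex IV. The counts were 2 of 3 for complex II, 3 of 5 for complex III and 5 of 12 for the assembly factors. The complex IV windows include those of Cox6b2, Cox7b2, Cox7c and Cox8b, which were below the filter. CCGGAAG, letters of an ETS motif bound by GABP, was in 26.9%, against 21.5% and 9.12%, and AAGATGG, of a YY1 motif, in 12.8%, against 8.09% and 6.48%. CCAAT was in 42.3%, against 39.4% and 37.9%, and TATAAA in 11.5%, against 6.55% and 14.2%. The median GC content was 59.0% for the members, 61.3% for genes kept and 52.7% for all genes. The members kept with the NRF1 letters had a median ratio of −0.03 (n = 26), as did those without (n = 47).

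Other genes of mitochondrial energy metabolism are described by their counts, beside the same 9097 genes kept. Of the subunits encoded in mitochondrial DNA, 1 was measured, ND5 of complex I, at 1815 with empty vector and 1829 with miR-155 (0.01). The shares of all genes kept given above, 15.1% at least 1.2-fold higher and 21.2% as much lower, are the background for each count. Of 12 electron and metabolite carriers and related genes, none was 1.2-fold higher and 1 was as much lower, the channel Vdac3 at 1876 and 1551 (−0.27). The ATP synthase inhibitor Atpif1 was next (−0.19), and the electron-transfer genes Etfdh (0.12) and the ADP/ATP carrier Slc25a4 (0.05, with −0.08 and 0.02 in further probesets) were the highest. The median of these 12 genes was −0.05. They are bright, with a median signal of 2658 with empty vector. Among the 1020 genes with a signal of at least 1000, 5.1% were at least 1.2-fold higher and 8.92% lower.

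Of 27 other assembly factors kept, 2 were at least 1.2-fold higher and 2 lower, around a median of 0.01. The highest was Atpaf2, which assembles the F1 head, at 150 and 202 (0.43, local SD 0.26), followed by Nubpl (0.29). The copper chaperone Sco1 (32.4 and 26.4, −0.30, local SD 0.62) and Uqcc3 (−0.28) were lowest. Of 17 regulators of mitochondrial gene expression, 1 was at least 1.2-fold higher, the ribosomal RNA methyltransferase Tfb1m (185 and 239, 0.37), followed by Tfb2m (0.23). The DNA polymerase Polg was the 1 as much lower (−0.27), followed by the RNA polymerase Polrmt (−0.23). The median was 0.00, and Gabpa read 0.23, with 0.11 in its further probeset. Nrf1 itself read 0.14, but its further probesets gave −0.49 and −0.16. Ppargc1a was not kept, at 2.61 and 1.90.

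All 76 mitochondrial ribosomal protein genes were kept, with a median ratio of −0.08. A ratio below 0 was found for 54 (71.1%), against 58% of all genes kept and 65.2% of the 1020 bright genes. Of the 54, 42 were below the median of all genes kept. Among the 76, 8 were at least 1.2-fold lower and 1 higher, against 21.2% and 15.1% of all genes kept. Their median signal of 748 with empty vector was above the 198 of genes kept, and ratios of brighter genes vary less. Among genes with a signal of at least 1000, 8.92% were as much lower and 5.1% higher. Mrps6 read 1882 and 1387 (−0.44, local SD 0.15, and −0.69 in its further probeset), while Mrpl52 read 1520 and 1855 (0.29, and 0.14 and 0.24 in further probesets). The next lowest and next highest, Mrps5 (−0.34) and Mrpl38 (0.17), had further probesets of the opposite sign, at 0.09 and −0.18. The spread was of the same size as that of the respiratory chain.

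Enzymes of the TCA cycle, with the pyruvate dehydrogenase complex, had a median of −0.17 over 17 genes, and 13 of them were below 0, against 58% of all genes kept. Of the 17, 1 was at least 1.2-fold higher and 4 lower, against 15.1% and 21.2% of all genes kept. These enzymes are brighter than genes at large, with a median signal of 1198 with empty vector, against 198. Among the 1020 genes with a signal of at least 1000, 5.1% were as much higher and 8.92% lower. Not all 17 enzymes are that bright. Of the 4 lower genes, 2 were the only genes of these lists that differed 1.5-fold with both readings above the floor. Pdhx, which tethers a part of pyruvate dehydrogenase, read 320 and 183 (1.75-fold lower, −0.81, local SD 0.24), and the mitochondrial isocitrate dehydrogenase Idh2 read 835 and 537 (1.56-fold lower, −0.64, local SD 0.19, and −0.53 in its further probeset). Fumarase (Fh1) was highest, at 2477 and 3144 (0.34, local SD 0.14), followed by malate dehydrogenase, Mdh2 (0.15, but −0.09 in its further probeset). The median moved to −0.04 at its highest under other settings.

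Glycolysis genes had a median of 0.00 over 15 genes. Pfkp (0.36) and Hk1 (0.32) were highest, Ldhb read 44.1 with empty vector and 24.4, below the floor, with miR-155, and Pfkl was next (−0.24, but 0.02 in its further probeset). Of 7 mitochondrial antioxidant genes, 5 were below 0 and 3 at least 1.2-fold lower, against 58% and 21.2% of all genes kept, with a median of −0.17. With 7 genes, 1 gene more or less moves these shares widely. Gsr, which reduces glutathione, read 445 and 332 (−0.42, and −1.12 in its further probeset). Txn2 read 519 and 397 (−0.39), but its further probesets gave 0.07 and 0.11. Glrx2 (0.18) and Prdx3 (0.01) were highest. The lists were not tested against each other.

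**Figure D4:**
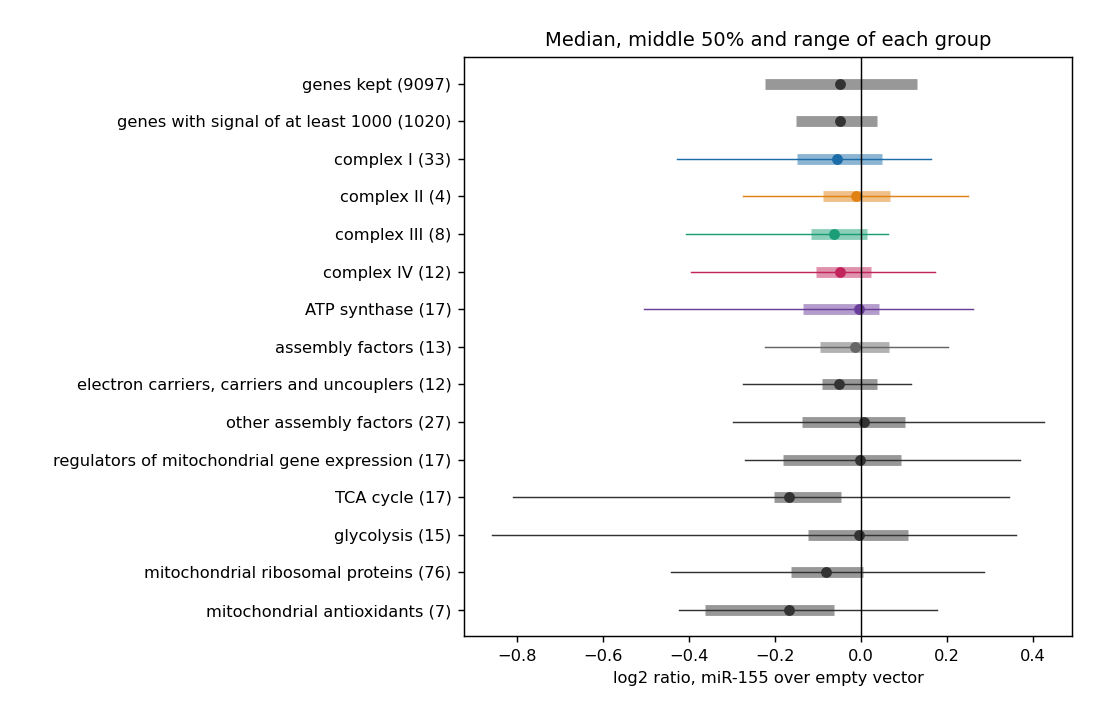
Median (point), middle 50% (thick bar) and full range (thin line) of the log2 ratio of miR-155 over empty vector for each complex and each related list, with all genes kept and those with a signal of at least 1000 at the top, drawn without their range. The number of genes is in brackets. The complexes centre between −0.06 and 0.00, and the low end of the glycolysis line is Ldhb, with 1 reading below the floor.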

How the data were processed

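The deposited table holds 1 probeset intensity per array on a linear scale. Per the labels, targets were labelled with biotin by the array maker's protocol. How probes were summarised and arrays scaled is not stated in the sources used here. Intensities were used as deposited, with no offset. Gene names came from the platform's annotation, with symbols checked by Entrez identifier against the RefSeq table (GRCm38.p6), which changed 0 of them. Of 45101 probesets, 64 were controls, 34945 had 1 symbol, 932 several and 9160 none. Steps were run in Python 3.11.15 with pandas 2.3.3 and numpy 2.4.6, and tested on simulated data. The number of arrays, not depth, limits precision.

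Members and lists were chosen with earlier results of these data known. The split into core and accessory or head and membrane subunits, the comparison with bright genes, the 2 local SD count and the promoters printed were chosen after the values were seen. Named were all members of complexes II and III, the 3 highest and 3 lowest of the other groups, the core and isoform genes, members below the filter, members whose probesets differed by 1.5-fold, and the 2 highest and lowest of each list. Other genes, such as Nrf1 and Gabpa, were named after their values were seen. Alternatives were another scaling, an offset, filter, probeset choice and grouping.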

Additional observations from a re-analysis of the deposited data

How the results depend on the processing

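Each complex median stayed between −0.09 and 0.05 under the alternatives for scaling, offset, filter and probesets, apart from that of complex III. It was −0.20 without probesets marked s, x or a, where 5 genes were left, Uqcrq among them through a dim probeset. The members at least 1.2-fold higher numbered 2, instead of 0, with the median of the genes kept subtracted, with quantile normalisation and with no filter on dim genes, and 5 with the mean of all probesets. With no filter 14 members passed 1.2-fold on the lower side. Past 1.5-fold there were then 2 higher and 3 lower, and past 2-fold 1 higher and 1 lower. With the mean of all probesets 1 was at least 1.5-fold higher, 3 at least 1.5-fold lower and 1 at least 2-fold lower, and without probesets marked s, x or a, 2 were at least 1.5-fold lower. The 7 members below the filter enter without it, and averaging brings in further probesets below the floor. Single members kept within their local SD in 544 comparisons with an alternative and moved further in 35. Many of the 544 were fixed in advance. A changed filter cannot alter a member's ratio, and subtracting the median shifts every ratio by only 0.05. The moves came where the probesets changed. With the mean of all probesets 21 members moved and 66 did not, and without probesets marked s, x or a, 14 moved and 50 did not. Members with 1 probeset could not move there. No paired analysis was possible because each group has 1 array.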

Other observations

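Probesets that the annotation assigns to several genes were left out of the values above. Those assigned to Ndufb4 and its copies Ndufb4b and Ndufb4c read 1611 with empty vector and 1500 with miR-155, and 1004 and 1014. The probeset of Ndufs6 and Ndufs6b read 1180 and 1100, the brighter one of Ndufa11 and Ndufa11b 833 and 755, and that of Ndufs5 with its pseudogene 1181 and 1051. The ratios of these 5 probesets lay between −0.17 and 0.01.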
